A study of Mus musculus with 12 samples.

Results

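The tumor effect common to both mouse groups was examined as the difference between tongue tumor-bearing and normal mice that was shared by females and males. All 12 libraries of the series entered 1 additive fit with a term for tumor status and a term for the letter F or M of the library, so that FT and MT (6 libraries) were compared with FN and MN (6 libraries). Of 22609 gene symbols counted, 13835 passed the filter on low counts and were tested. A gene was taken to move the same way where the log2 fold changes of MT versus MN and of FT versus FN had 1 sign, both with all 12 libraries and with the 10 libraries left without FN2 and FT2, and 4261 of the 13811 genes tested in both settings did so.

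The mice were Balb/c athymic nude mice, 6 to 8 weeks old per the study's methods, which lack a thymus and so have few mature T cells. MT and FT were males and females inoculated in the tongue with 350000 HSC3 cells, a human oral squamous cell carcinoma line, whereas MN and FN were males and females that per the labels received no cells (the study's methods describe human normal oral keratinocytes instead). All 4 groups received wheat germ agglutinin coupled to a green dye in the tongue on day 13, which is taken up by nerve endings and carried back to the cell bodies in the trigeminal ganglion (TG), and bright cells were sorted on day 15. Each library pooled 4 ganglia, from 2 mice in the normal groups and from the tumor side of 4 mice in the tumor groups, and each group had 3 libraries, so that the number of mice per pool and the side were tied to tumor status and cannot be told apart from it.

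Sensory neurons of the TG carry touch, temperature and pain from the tongue. When their peripheral endings are damaged, such neurons are known to switch on a regeneration program that includes transcription factors such as Atf3, the cytoskeletal and growth-associated proteins Sprr1a and Gap43, and the neuropeptides galanin (Gal) and neuropeptide Y (Npy). The ganglion also holds satellite glia, Schwann cells, fibroblasts, vessels and macrophages, and macrophages are known to gather around injured neurons and to present antigen through MHC class II proteins.

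The reads counted on genes ranged from 4592891 (FT2) to 8922011 (MN2) per library. Reads mapped to several places were not counted on genes. They made up 56.0% of the counts over all rows, those that name no gene included, in FN2, 68.4% in FT2 and 52.6% in FT3. In the other 9 libraries this share was 43.0% to 45.5%. These are shares of row totals, not of sequenced reads. Of the defining neuronal markers, Tubb3 lay between 2505 and 6188 normalised CPM (counts scaled to a common library size) and Pirt between 594 and 1993 over the 12 libraries. Markers of other cells were also read in every library, among them the satellite glial gene Fabp7 at 95.4 to 1033 CPM. Of the 2 defining red blood cell genes, Hba-a1 was at 0 in all 12, and Alas2 lay between 0 and 3.37 CPM (median 0.54). Since reads mapped to several places were not counted, a level of 0 does not show that such cells were absent. In pooled sorted cells, a larger number of cells of a type and more RNA per cell cannot be told apart.

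No gene passed an adjusted p of 0.05 for the common tumor effect in edgeR's quasi-likelihood test, with 12 libraries (0% of 13835 genes, lowest adjusted p = 0.9997) or with 10 (0% of 13943 genes, lowest adjusted p = 0.71). At an unadjusted p under 0.05, 77 genes were higher (0.557%) and 31 lower (0.224%) in tumor-bearing mice with 12 libraries. With 10 libraries, 419 were higher (3.01%) and 362 lower (2.6%). Evenly spread p-values would put 5% of genes under this threshold, so the 108 genes with 12 libraries lay below that share and the 781 with 10 libraries close to it. The median standard error of the log2 fold change was 0.33 with 12 libraries and 0.22 with 10. DESeq2 called 0 of 13835 genes with 12 libraries (177 at an unadjusted p under 0.05) and 8 of 13943 with 10 libraries. Limma-voom with sample weights called 1 of 13835 genes with 12 libraries (1318 at an unadjusted p under 0.05). The 177 genes of DESeq2 lay below the 5% share and the 1318 of limma-voom above it.

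The 8 genes that DESeq2 called with 10 libraries were Apod (log2 fold change 1.38, adjusted p = 0.000453), Gal (1.91, adjusted p = 0.00392), Sprr1a (3.17, adjusted p = 0.0294), Gadd45b (0.86, adjusted p = 0.0273), Chi3l3 (1.74, adjusted p = 0.0316), Gpr151 (1.45, adjusted p = 0.0344) and Cirbp (0.63, adjusted p = 0.0249), all higher, and Fbln2 (-0.69, adjusted p = 0.00861), which was lower. Gpr151 and Cirbp were named after their values were seen. Apod was also the gene that limma-voom called with 12 libraries (log2 fold change 0.98, adjusted p = 0.027). The edgeR test passed none of the 8 in the same 10 libraries (adjusted p = 0.71 for each), so these calls rest on DESeq2.

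By the criteria of the study's methods (unadjusted p under 0.05, fold change over 1.5, mean RPKM over 5 in the tumor or the normal libraries), 36 genes were higher and 3 were lower with 12 libraries, and 74 were higher and 13 lower with 10. The criteria were met in both settings by 17 genes. The 15 that were higher fell into a few groups, namely the peptides Gal and Npy with Sprr1a, the MHC class II genes Cd74, H2-Aa, H2-Ab1, H2-Eb1 and the pseudogene H2-Ea-ps, the immune genes Ccl4, Ccrl2, Ctss, Fcer1g and Ifitm1, the heat shock gene Hspa1b and the muscle-associated Mustn1. The 2 that were lower were Dpp10, a potassium channel accessory subunit, and Paqr8, a membrane progestin receptor.

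The pairs MT versus MN and FT versus FN share no library, so their signs can be set side by side. With 12 libraries, the 2 pairs had 1 sign in 45.9% of genes (2875 higher and 3478 lower in tumor-bearing mice). With 10 libraries, this share was 55.2% (3702 higher and 3992 lower). Both settings together left 1834 genes higher (13.3%) and 2427 lower (17.6%) that moved the same way. Genes are not independent of each other, and no test was made on these shares.

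**Figure D1:**
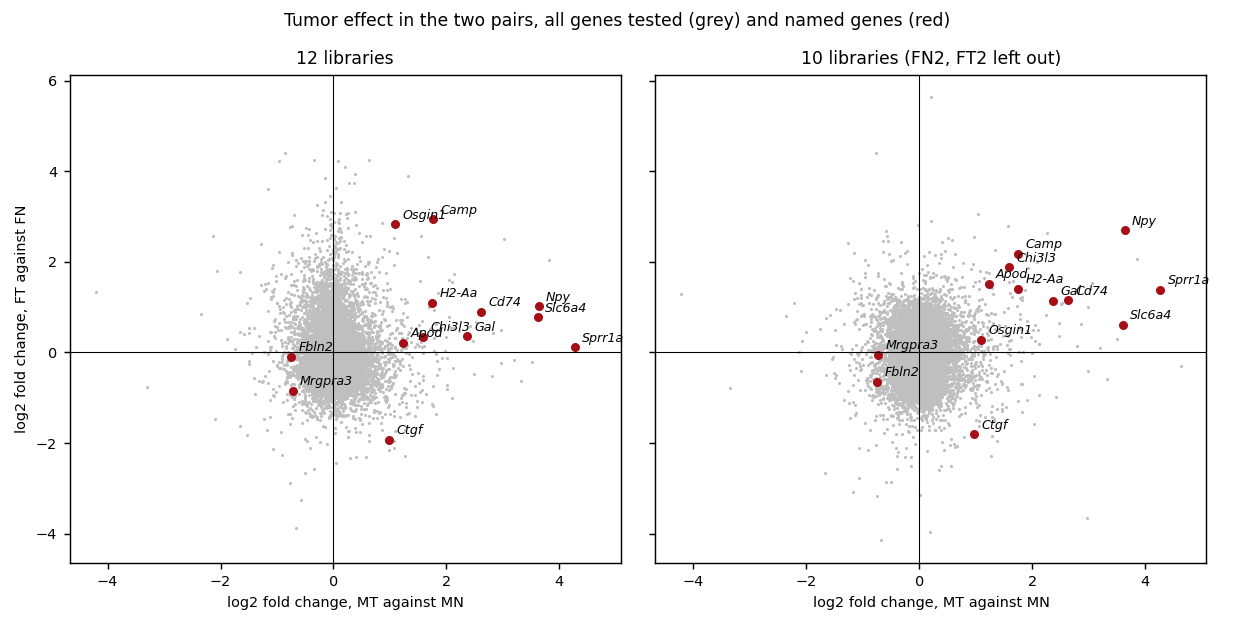
Each point is a gene, with the log2 fold change of MT versus MN on the x axis and that of FT versus FN on the y axis, for all 12 libraries (left) and for 10 libraries without FN2 and FT2 (right). Named genes are in red. Sprr1a lies at 4.27 on the x axis in both panels and moves on the y axis from 0.11 to 1.39, and Ctgf lies below 0 on the y axis in both.

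The groups were also set side by side library by library, and no test was made on these counts. With 12 libraries, 7 genes had every tumor library above every normal library within both pairs (0.0506%) and 7 had every tumor library below (0.0506%), among them Th1l, Lhcgr and Dusp2 above and Ift81, Papln and Isoc1 below. Without FN2 and FT2, 213 genes were above (1.53%) and 234 below (1.68%) in both pairs. Th1l, a subunit of the negative elongation factor of transcription also known as Nelfcd, was the 1 gene whose 6 tumor libraries all lay above the 6 normal libraries. It was read at 103, 116 and 121 CPM in MN, 140, 138 and 131 in MT, 108, 79.9 and 125 in FN, and 128, 168 and 137 in FT (log2 fold change 0.37 ± 0.20 SE, unadjusted p = 0.0847).

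Ift81, a component of the transport machinery of cilia, lay lower in all 6 tumor libraries, at 18.7, 15.9 and 16.9 CPM in MN, 13.4, 14.5 and 15.7 in MT, 16.8, 27.4 and 17.7 in FN, and 12.0, 8.99 and 12.1 in FT. Its log2 fold change was -0.57 ± 0.24 (SE, unadjusted p = 0.0307). The same held for Papln, an extracellular matrix glycoprotein gene of low level (0.842 to 5.21 CPM over all libraries), with a log2 fold change of -0.99 ± 0.34 (SE). Papln, Lhcgr and Dusp2 were named after their values were seen, as were Gap43, Calca, Tac1, Ccrl2, Ifitm1 and H2-Ea-ps elsewhere. The differences of Th1l and Ift81 were under the 1.5-fold criterion.

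Genes of the axon injury response were mostly higher in tumor-bearing mice in the additive fit, none past an adjusted p of 0.05 in edgeR. Of 32 listed genes, 27 passed the filter, and 25 were higher and 2 lower in tumor-bearing mice with 12 libraries, 4 of them at an unadjusted p under 0.05 (Ankrd1, Sprr1a, Npy and Gal). Their median log2 fold change was 0.34, against -0.02 over all genes. The pair medians were 0.56 in males and -0.01 in females, and the latter was 0.44 without FN2 and FT2. With 10 libraries, 26 of 27 were higher, 13 at an unadjusted p under 0.05, and the median was 0.48, against -0.01 over all genes. Of the 27, 8 moved the same way upwards and none downwards, against 13.3% and 17.6% of all genes. The rest did not keep 1 sign over both pairs and both settings. The share of all genes higher at an unadjusted p under 0.05 was 0.557% with 12 libraries and 3.01% with 10.

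Gal, which encodes galanin (chr19:3409919-3414472, minus strand; mm9, as are all gene positions here), was read at 58.4, 40.0 and 59.9 CPM in MN and at 252, 264 and 302 in MT. In FN it was read at 101, 1522 and 355 and in FT at 220, 1554 and 769. The male groups did not overlap, whereas FN2 and FT2 were the 2 highest libraries of all and the female groups overlapped. The common log2 fold change was 1.36 ± 0.62 (SE, unadjusted p = 0.0436) with 12 libraries and 1.87 ± 0.40 (unadjusted p = 0.0005) with 10. The female pair differed by 0.36 with FN2 and FT2 and by 1.14 without them, against 2.37 in the male pair.

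Sprr1a (chr3:92287877-92289816, minus strand), a small proline-rich protein known from regenerating axons, was read at 2.67, 1.29 and 3.13 CPM in MN and at 47.6, 42.0 and 47.9 in MT. The FN libraries held 7.95, 204 and 49.8 CPM and the FT libraries 30.7, 135 and 118. Every MT library was far above every MN library, and the female libraries, which overlapped, all lay above MN. The common log2 fold change was 2.07 ± 0.91 (SE, unadjusted p = 0.0384) with 12 libraries and 2.94 ± 0.65 (unadjusted p = 0.000638) with 10. The effect in females differed from that in males at an unadjusted p of 0.00332 (12 libraries) and 0.0122 (10 libraries), neither of which passed the adjustment over all genes.

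Npy (chr6:49772709-49779506, plus strand) was low in MN, at 0.134, 0.216 and 0.216 CPM, and at 3.75, 1.88 and 2.06 in MT. It was read at 1.05, 13.1 and 4.70 in FN and at 1.66, 0.842 and 35.1 in FT. The male groups were apart, and the female groups overlapped. The common log2 fold change was 1.93 ± 0.86 (SE, unadjusted p = 0.0396), and it was 0.88 (unadjusted p = 0.457) without FT3, the library with the highest value. Ankrd1, a transcriptional cofactor of stretched muscle, was low throughout (0 to 12.9 CPM, the highest in FT2) with a log2 fold change of 2.71 ± 0.79 (SE, unadjusted p = 0.00363).

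**Figure D2:**
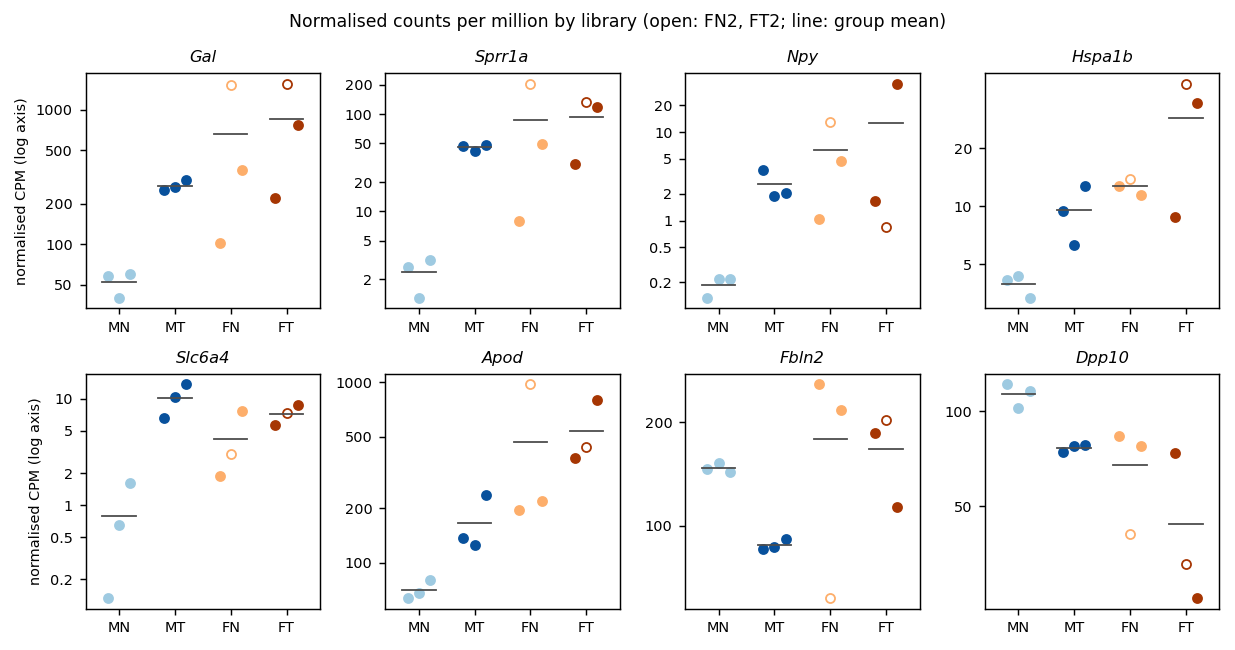
Normalised CPM on a log axis for 8 genes in the 3 libraries of each group, with open circles for FN2 and FT2 and a line for the group mean. MT and MN do not overlap for any of the 8 genes, and the open circles set the highest Gal values of FN and FT (1522 and 1554).

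Atf3, the transcription factor most used to mark injured sensory neurons, was read at 78.6, 152 and 117 CPM in MN, 182, 166 and 173 in MT, 142, 233 and 161 in FN, and 139, 261 and 317 in FT. The MT libraries were above MN, and FT and FN overlapped. Its log2 fold change was 0.50 ± 0.25 (SE, unadjusted p = 0.0666) with 12 libraries and 0.60 ± 0.23 (unadjusted p = 0.021) with 10. Fst, which encodes the activin antagonist follistatin, had 0.59 ± 0.29 (unadjusted p = 0.0597) and 0.88 ± 0.20 (unadjusted p = 0.000772). Gpr151, an orphan receptor of injured sensory neurons, had 0.88 ± 0.57 and 1.40 ± 0.34, and FT2, at 1.68 CPM against 18.7 and 37.1 in FT1 and FT3, was its lowest library. Gap43 differed by 0.14 ± 0.32 and 0.48 ± 0.19.

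Among 20 listed neuropeptide genes, 15 passed the filter and 10 of these were higher (median log2 fold change 0.07, or -0.01 with library size alone as the scaling), with 12 of 15 higher and a median of 0.27 in 10 libraries. The pair medians were 0.24 in males and -0.17 in females (0.65 without FN2 and FT2). At an unadjusted p under 0.05 with 12 libraries, 3 of the 15 were higher, against 0.557% of all genes. Besides Gal and Npy, this was Cck, which encodes cholecystokinin, at 0.647 to 0.936 CPM in MN, 0.808 to 2.00 in MT, 0.957 to 1.78 in FN and 3.37 to 3.88 in FT (log2 fold change 1.14 ± 0.37 SE, unadjusted p = 0.00726). The 3 FT libraries lay above the 3 FN libraries for Cck, and MT and MN overlapped. Vgf, a secreted nerve growth factor-inducible protein gene, had a log2 fold change of 0.85 ± 0.41 with 12 libraries, 481 CPM in FT2 being its highest value, and 0.46 ± 0.18 with 10. The pain peptide genes Calca and Tac1 had -0.09 ± 0.34 and -0.04 ± 0.36 with 12 libraries and 0.42 ± 0.18 and 0.53 ± 0.16 with 10, and FN2 was the highest library for both (13786 and 3559 CPM).

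Genes of sensory neuron identity showed no common direction. Of 25 tested, 13 were higher and 12 lower (median log2 fold change 0.01, or -0.01 with library size alone), none at an unadjusted p under 0.05 in either direction with 12 libraries. Tubb3, the neuronal tubulin, had 0.03 ± 0.25 and Pirt, a regulator of Trpv1, had -0.05 ± 0.27 (SE). Of the 31 tested receptors for mediators that tumors release, 11 were higher and 20 lower (median -0.08), also with none under an unadjusted p of 0.05 with 12 libraries. Mrgpra3, an itch receptor, was read at 59.8, 40.7 and 45.2 CPM in MN, 34.8, 23.7 and 29.8 in MT, 27.5, 102 and 43.2 in FN, and 18.9, 28.6 and 48.3 in FT. The MT libraries all lay below MN and the female groups overlapped. Its log2 fold change was -0.78 ± 0.32 (unadjusted p = 0.0269) with 12 libraries and -0.45 ± 0.26 (unadjusted p = 0.106) without FN2, its highest library, and FT2.

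MHC class II genes had the highest median of the lists examined in the fit of 12 libraries. Of 8 listed, 6 passed the filter and all 6 were higher (median log2 fold change 1.22), 4 of them at an unadjusted p under 0.05, and with 10 libraries 5 of 6 were (median 1.38). With limma-voom and sample weights the median was 0.43, and H2-Aa (0.42, unadjusted p = 0.291), H2-Eb1 (0.67, unadjusted p = 0.254), H2-Ab1 (0.29, unadjusted p = 0.325) and Cd74 (0.58, unadjusted p = 0.244) were not under 0.05. Of the 6, 5 moved the same way upwards in both pairs, against 13.3% of all genes. The share of all genes higher at an unadjusted p under 0.05 was 0.557% with 12 libraries and 3.01% with 10. H2-Aa, the class II alpha chain (chr17:34406276-34424772, minus strand), was read at 3.61, 3.13 and 3.78 CPM in MN, 2.75, 3.10 and 29.6 in MT, 13.2, 12.9 and 5.59 in FN, and 11.7, 18.8 and 37.4 in FT. In males 1 library, MT3, stood above the rest while MT1 and MT2 were below the lowest MN library, and FT3 was the highest female library. The log2 fold change of 1.42 ± 0.53 (unadjusted p = 0.0178) became 0.55 (unadjusted p = 0.194) without MT3 and 1.21 (unadjusted p = 0.0611) without FT3.

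Cd74, the class II invariant chain, was read at 8.42, 2.59 and 3.45 CPM in MN, 2.62, 3.50 and 82.2 in MT, 33.3, 28.4 and 13.3 in FN, and 32.5, 37.6 and 69.4 in FT. MT1 and MT2 lay within the MN range. The log2 fold change was 1.73 ± 0.73 (unadjusted p = 0.0304), or 0.29 (unadjusted p = 0.523) without MT3. H2-Eb1 had 1.82 ± 0.71 and 0.62 without MT3, and H2-Ab1 had 1.03 ± 0.41 and 0.55 without MT3. In males, MT3 was the 1 library above the MN range for H2-Aa, Cd74, H2-Eb1 and H2-Ab1.

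Macrophage markers were higher as well, with the same library standing out in males. All 21 tested of 22 listed were higher (median log2 fold change 0.94), 3 at an unadjusted p under 0.05 (Fcer1g, Ctss and Sfpi1), against 0.557% of all genes. Of the 21, 12 moved the same way upwards in both pairs, against 13.3% of all genes. With limma-voom and sample weights the median was 0.27, and Ctss (0.75, unadjusted p = 0.0643) was not under 0.05. With 10 libraries all 22 were tested and higher (median 0.71), 7 at an unadjusted p under 0.05, against 3.01% of all genes. The summed level of the 22 markers was 63.2 to 80.2 CPM in MN, 59.3 and 62.3 in MT1 and MT2 and 359 in MT3. It was 225 to 491 in FN and 385 to 711 in FT. MT1 and MT2 lay below the MN range, and the defining markers C1qa (1.62 to 62.2 CPM) and Csf1r (0.999 to 64.3 CPM) were above 0 in every library.

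Fcer1g, the shared signalling chain of Fc receptors (chr1:173159703-173164496, minus strand), was read at 0.535, 0.863 and 0.755 CPM in MN, 0.749, 1.62 and 4.58 in MT, 7.95, 9.89 and 2.16 in FN, and 7.13, 57.0 and 22.8 in FT. Its log2 fold change of 1.93 ± 0.55 (unadjusted p = 0.0032) kept its sign and an unadjusted p between 0.000679 and 0.0178 when any 1 library was left out. Ctss, the lysosomal protease cathepsin S, had 1.54 ± 0.60 (unadjusted p = 0.0212), or 0.62 (unadjusted p = 0.106) without MT3, where it was read at 35.9 CPM against 2.50 and 4.98 in MT1 and MT2. C1qa had 1.29 ± 0.62, with 29.2 CPM in MT3 against 1.62 and 2.42 in the other MT libraries.

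**Figure D3:**
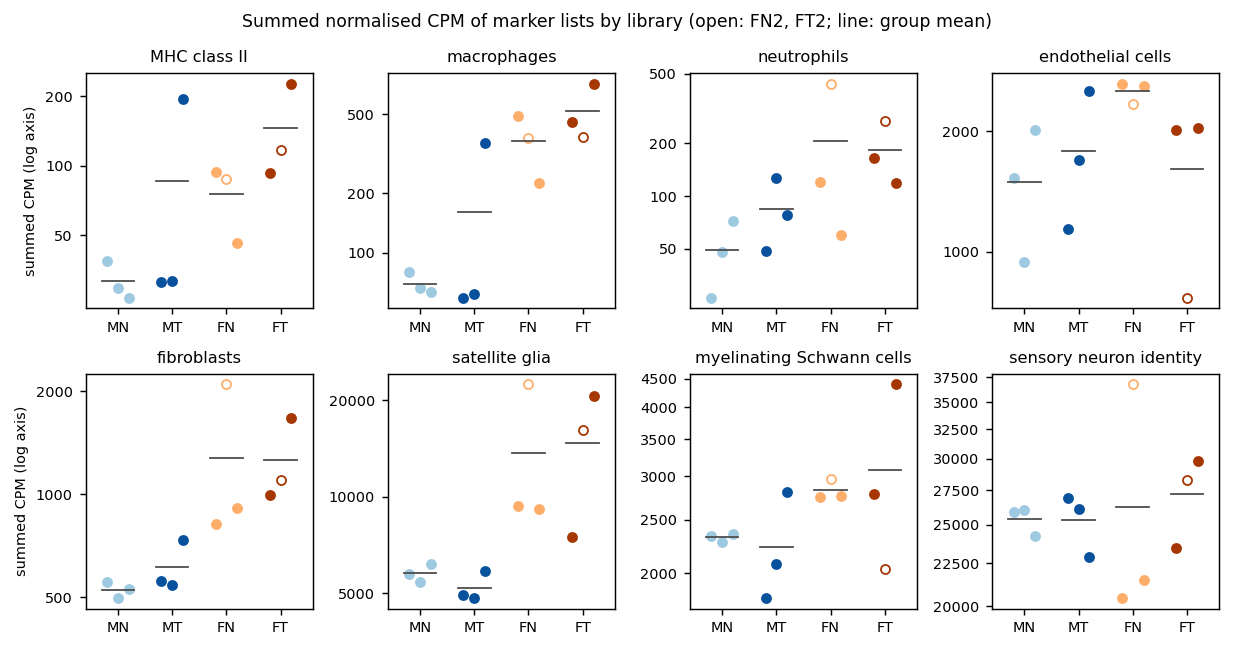
Summed normalised CPM on a log axis of the members of 8 marker lists in each library, with open circles for FN2 and FT2 and a line for the group mean. The macrophage and MHC class II sums of MT3 (359 and 193) stand above those of MT1 and MT2, and FT2 has the lowest endothelial sum (766).

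Chemokine and cytokine genes were higher in 16 of the 20 tested (median log2 fold change 0.43), 4 at an unadjusted p under 0.05, and in 17 of 20 with 10 libraries (median 1.07), 11 at an unadjusted p under 0.05. Of the 20, 10 moved the same way upwards and 1 downwards, against 13.3% and 17.6% of all genes. Over all genes, 0.557% were higher at an unadjusted p under 0.05 with 12 libraries and 3.01% with 10. Cxcl2, a neutrophil attractant, was read at 1.87, 1.08 and 1.29 CPM in MN, 1.37, 1.21 and 6.65 in MT, 6.67, 7.98 and 1.40 in FN, and 11.1, 48.6 and 13.9 in FT. All FT libraries lay above all FN libraries, and in males MT3 alone was above the MN range. Cxcl2 had a log2 fold change of 1.71 ± 0.56 (unadjusted p = 0.00817) with 12 libraries and 1.39 ± 0.50 (unadjusted p = 0.0164) with 10.

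Ccl4, a macrophage inflammatory protein, was read at 1.47, 0.216 and 0.324 CPM in MN, 1.37, 0.942 and 4.01 in MT, 4.68, 11.2 and 2.16 in FN, and 7.01, 19.1 and 10.3 in FT, with overlap in both pairs (log2 fold change 1.30 ± 0.54 SE, unadjusted p = 0.0288). Ccl12, a monocyte attractant, had 2.95 ± 0.83 (unadjusted p = 0.0029) on levels of at most 1.38 CPM outside FT, where it reached 20.2 in FT2. Of the 11 neutrophil genes tested of 15 listed, 7 were higher (median 0.95). At an unadjusted p under 0.05, 0.557% of all genes were higher, and 1 of the 11. This was Camp, the antimicrobial peptide of neutrophil granules, at 0, 0.108 and 0.755 CPM in MN, 0.375, 0.942 and 1.83 in MT, 1.05, 0.638 and 0.508 in FN, and 3.95, 10.7 and 3.16 in FT. FT lay above FN for Camp without overlap, while MT and MN overlapped (log2 fold change 2.45 ± 0.64 SE, unadjusted p = 0.00156). The part that immune cells in the sort had in these differences was not tested.

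Stress and immediate early genes were higher in 18 of 22 tested (median log2 fold change 0.17) with 12 libraries. With 10 libraries, 19 of 22 were higher (median 0.37), 9 at an unadjusted p under 0.05, against 3.01% of all genes. With 12 libraries the pair medians had opposite signs, at 0.53 in males and -0.16 in females, and the female median was 0.17 without FN2 and FT2. Hspa1b, an inducible heat shock protein gene (chr17:35093381-35096183, minus strand), was read at 4.14, 4.32 and 3.34 CPM in MN, 9.49, 6.33 and 12.7 in MT, 12.7, 13.9 and 11.4 in FN, and 8.79, 43.2 and 34.6 in FT. MT lay above MN, and 1 FT library was below the FN range. Hspa1b had a log2 fold change of 1.22 ± 0.34 (SE, unadjusted p = 0.00245) with 12 libraries and 1.10 ± 0.33 (unadjusted p = 0.0056) with 10. It was 1.27 in the male and 1.18 in the female pair. With limma-voom and sample weights Hspa1b had 0.49 and was not under 0.05 (unadjusted p = 0.0698). Its near-identical neighbour Hspa1a, with which reads can be shared, had 0.80 ± 0.39 and 1.02 ± 0.29.

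Phlda1, an early response gene linked to cell survival, was read at 8.69, 12.2 and 9.49 CPM in MN, 16.7, 17.5 and 16.5 in MT, 13.4, 10.4 and 19.9 in FN, and 17.2, 28.9 and 21.0 in FT. The male groups were apart, and FT1 fell within the FN range. Phlda1 had a log2 fold change of 0.67 ± 0.24 (unadjusted p = 0.0133). Gadd45b, a growth arrest gene, had 0.29 ± 0.36 with 12 libraries, where FN2 was the highest library at 93.0 CPM, and 0.84 ± 0.17 with 10. The cold-inducible RNA-binding protein gene Cirbp had 0.07 ± 0.37 and 0.61 ± 0.14, FN2 again being highest, at 400 CPM against 99.4 to 142 in the other female libraries.

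Dusp2, a phosphatase that inactivates MAP kinases, was read at 1.60, 1.08 and 0.863 CPM in MN, 3.37, 1.88 and 3.44 in MT, 1.75, 2.39 and 3.05 in FN, and 4.71, 3.93 and 6.90 in FT. The groups did not overlap within either pair, and the log2 fold change of 1.20 ± 0.34 (unadjusted p = 0.00274) stayed between 1.09 and 1.31 when any 1 library was left out. Osgin1, an oxidative stress-induced growth inhibitor, and Edn1, which encodes endothelin-1, differed mainly through FT2. Osgin1 was read at 134 CPM in FT2 and at no more than 13.2 elsewhere, and its log2 fold change went from 2.02 ± 0.66 to 0.73 ± 0.33 with 10 libraries. Edn1 was read at 31.2 CPM in FT2 and at no more than 10.3 elsewhere, with 0.98 ± 0.35 and 0.59 ± 0.24.

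Slc6a4, the serotonin transporter gene (chr11:76812105-76845842, plus strand), was read at 0.134, 0.647 and 1.62 CPM in MN, 6.62, 10.4 and 13.8 in MT, 1.87, 3.03 and 7.75 in FN, and 5.73, 7.30 and 8.76 in FT. MT lay above MN without overlap, and FT lay above 2 of the 3 FN libraries. The common log2 fold change was 2.10 ± 0.61 (SE, unadjusted p = 0.00374) with 12 libraries and 2.20 ± 0.63 (unadjusted p = 0.0039) with 10. The pairs differed in size, at 3.62 in males and 0.78 in females (unadjusted p = 0.00861 for the difference, which did not pass the adjustment). The common log2 fold change lay between 1.73 and 2.65 when any 1 library was left out.

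Apod, an apolipoprotein of Schwann cells and fibroblasts (chr16:31296278-31314894, minus strand), was read at 63.9, 67.8 and 80.6 CPM in MN, 137, 126 and 238 in MT, 197, 973 and 220 in FN, and 382, 438 and 792 in FT. The groups did not overlap in males, nor in females once FN2 was set aside. The log2 fold change was 0.72 ± 0.40 (unadjusted p = 0.0919) with 12 libraries and 1.35 ± 0.23 (unadjusted p = 6.48e-05) with 10, the lowest p of that fit. Timp1, a metalloproteinase inhibitor, had 0.79 ± 0.38 and 1.12 ± 0.29, and Mustn1 had 0.81 ± 0.34 and 0.92 ± 0.22. Cyp4b1, a cytochrome P450, had 0.54 ± 0.39 and 0.84 ± 0.19, with 1.12 CPM in FT2 against 8.66 and 12.5 in FT1 and FT3.

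The 10 genes that the study's supplement lists as raised in both pairs (Sprr1a, Gal, Chi3l3, Cxcl10, Apod, Timp1, Tnfsf9, Mustn1, Mlf1 and Gadd45b) were chosen on these same libraries and are not independent evidence of direction. The study's text counts more such genes than its supplement lists. All 10 were higher with 12 libraries (median log2 fold change 0.76), 3 at an unadjusted p under 0.05 (Mustn1, Sprr1a and Gal). All 10 were higher with 10 libraries (median 1.27), each at an unadjusted p under 0.05. Their median in the female pair was 0.16 with FN2 and FT2 and 1.26 without them, against 1.20 in the male pair. Cxcl10, Tnfsf9, Mlf1 and Gadd45b had negative female differences with 12 libraries (-0.81, -0.25, -0.70 and -0.21), and FN2 was the highest FN library for each. The study reports each of them as raised in FT versus FN. Chi3l3, a chitinase-like protein gene that has close paralogs and was read at 0 in FT2, reached 5.35 CPM at most.

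**Figure D4:**
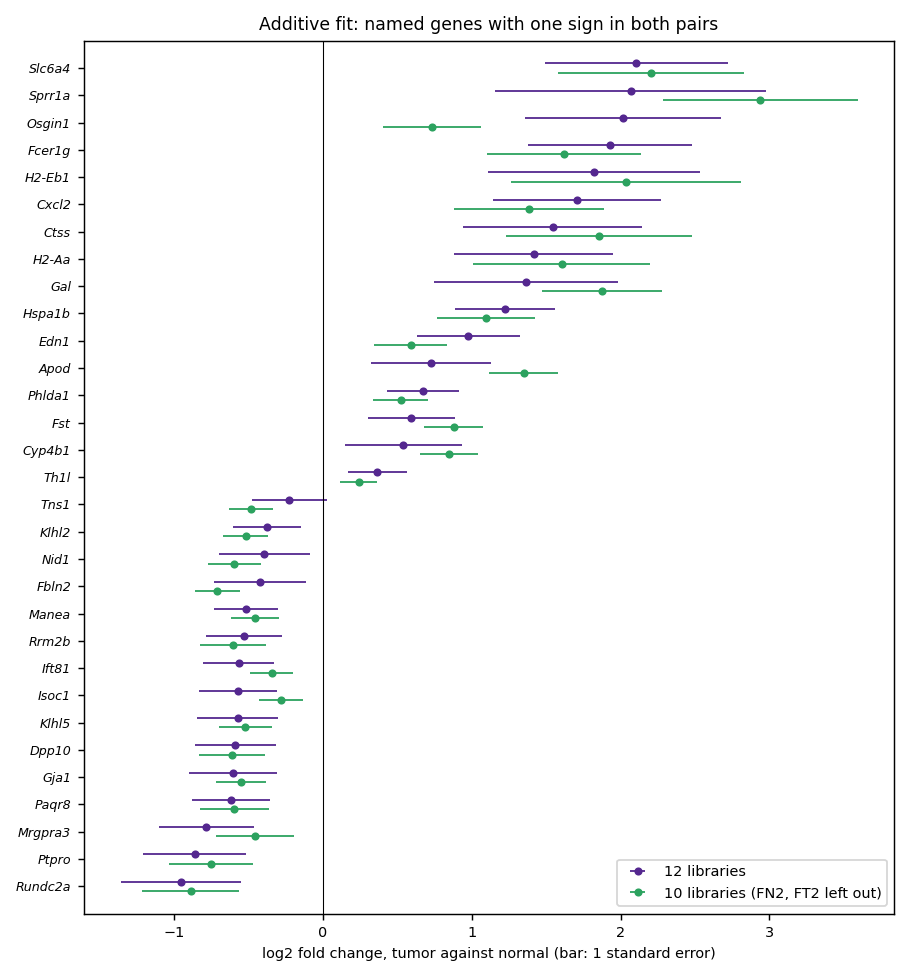
Common log2 fold change of tumor versus normal in the additive fit for genes named by the rule, with bars of 1 standard error, for 12 libraries (purple) and 10 libraries without FN2 and FT2 (green). Osgin1 moves most of the genes plotted, from 2.02 to 0.73.

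Few genes were lower by the criteria of the study. Dpp10 (chr1:125228716-125942136, minus strand) was read at 122, 103 and 116 CPM in MN, 74.2, 77.8 and 78.3 in MT, 83.6, 40.9 and 77.6 in FN, and 73.8, 32.9 and 25.6 in FT. The MT libraries lay below MN, and FT lay below FN once FN2 was set aside. The log2 fold change was -0.59 ± 0.27 (SE, unadjusted p = 0.0489) with 12 libraries and -0.61 ± 0.22 (unadjusted p = 0.0162) with 10. Paqr8 was read at 30.6, 36.7 and 43.7 CPM in MN, 24.0, 31.6 and 33.2 in MT, 32.0, 22.2 and 35.6 in FN, and 23.1, 14.6 and 9.77 in FT, with overlap in both pairs (-0.62 ± 0.26, unadjusted p = 0.0315).

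Ptpro, a receptor tyrosine phosphatase of neurons, had a log2 fold change of -0.86 ± 0.35 (unadjusted p = 0.0253) on 1.40 to 11.9 CPM. Manea, an enzyme of N-glycan trimming, was read at 17.9, 21.7 and 20.0 CPM in MN, 18.2, 15.3 and 17.1 in MT, 17.1, 15.0 and 17.4 in FN, and 10.4, 8.71 and 9.05 in FT. The female groups did not overlap for Manea, and MT1 fell within the MN range (-0.51 ± 0.22, unadjusted p = 0.031). Klhl5, a kelch-like protein gene, had -0.57 ± 0.27 and Rrm2b, a p53-inducible ribonucleotide reductase subunit, had -0.53 ± 0.26. Rundc2a had -0.95 ± 0.40, and Isoc1 had -0.57 ± 0.26, of which -0.10 in the male pair.

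Among the lower genes of the 10-library fit, Fbln2, which encodes the matrix protein fibulin-2 (chr6:91162449-91222534, plus strand), was read at 146, 153 and 144 CPM in MN and at 85.4, 86.8 and 91.3 in MT. It was read at 258, 61.4 and 217 in FN and at 186, 203 and 113 in FT. The male groups were apart, and in females FT lay below FN1 and FN3 and above FN2. The log2 fold change was -0.42 ± 0.31 (unadjusted p = 0.192) with 12 libraries and -0.71 ± 0.15 (unadjusted p = 0.000454) with 10. The basement membrane gene Nid1 had -0.39 ± 0.31 and -0.59 ± 0.18, the focal adhesion gene Tns1 had -0.23 ± 0.25 and -0.48 ± 0.15, and the gap junction gene Gja1, expressed by satellite glia, had -0.60 ± 0.29 and -0.55 ± 0.17. Klhl2 had -0.37 ± 0.23 and -0.52 ± 0.15.

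Some gene groups had estimates of opposite sign in the 2 pairs, which the additive fit combines into 1 value. The 5 genes that the study's supplement lists as opposite (Fam107a, Sgk1, Ctgf, Scgb1a1 and Fabp7; its text counts more), again chosen on these libraries, had a median common log2 fold change of -0.15. None was under an unadjusted p of 0.05. Ctgf, a matricellular growth factor, was read at 68.8, 37.3 and 94.2 CPM in MN, 94.1, 111 and 190 in MT, 140, 32.7 and 190 in FN, and 72.6, 1.68 and 20.7 in FT. Its difference was 0.98 in males and -1.92 in females (unadjusted p = 0.0305 for the difference). Sgk1, a glucocorticoid-induced kinase gene, had 0.61 and -1.11 with 10 libraries (unadjusted p = 0.00107 for the difference). In edgeR, 0 genes passed an adjusted p of 0.05 for a difference of the tumor effect between F and M. At an unadjusted p under 0.05 were 203 of 13835 genes with 12 libraries and 818 of 13943 with 10. The adjusted test of limma-voom also passed 0.

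Endothelial markers were lower in 21 of 24 tested (median log2 fold change -0.26). Their median was 0.19 in the male pair and -0.68 in the female pair (-0.82 without FN2 and FT2). Of the 24, 3 moved the same way, all downwards (12.5%, against 17.6% of all genes). Glucocorticoid-response genes had 0.60 in males and -0.45 in females (-0.17 without FN2 and FT2), and circadian clock genes 0.30 and -0.30 (-0.35). The interferon-response list was higher in 19 of 25 (median 0.17), at 0.46 in males and -0.14 in females, which became 0.08 without FN2 and FT2. Satellite glial (16 tested, median -0.01) and Schwann cell markers (14 tested, median -0.05) lay near 0, and fibroblast markers went from -0.14 with 12 libraries to 0.29 with 10 (18 tested). Pericyte and smooth muscle markers had a median of 0.41 (14 tested), or 0.20 with limma-voom. Of these 14, 1 was higher at an unadjusted p under 0.05, against 0.557% of all genes. This was Higd1b, which had -0.11 with limma-voom. The p53 (-0.04), integrated stress (-0.03) and cholesterol synthesis (-0.09) lists also lay near 0, and no red blood cell gene passed the filter.

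Genes of the respiratory chain and of the ribosome had higher medians in the female than in the male pair, a difference that was not tested. Of 75 oxidative phosphorylation genes tested, 54 were higher (median log2 fold change 0.32), at 0.05 in males and 0.57 in females. Their summed level was 79831 CPM in FT2, 46694 in FN2 and 32788 in FT3, against 14809 to 20342 in the other 9 libraries, the same 3 libraries that had the larger shares of reads mapped to several places. Of 65 ribosomal protein genes, 47 were higher (median 0.25). Of the 75 oxidative phosphorylation genes, 38 moved the same way upwards and 2 downwards. Of 63 ribosomal protein genes tested in both settings, 34 did so upwards and 0 downwards. Over all genes these shares were 13.3% and 17.6%. With 10 libraries, which still hold FT3, both medians were 0.30. The part of these libraries in the medians was not tested.

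**Figure D5:**
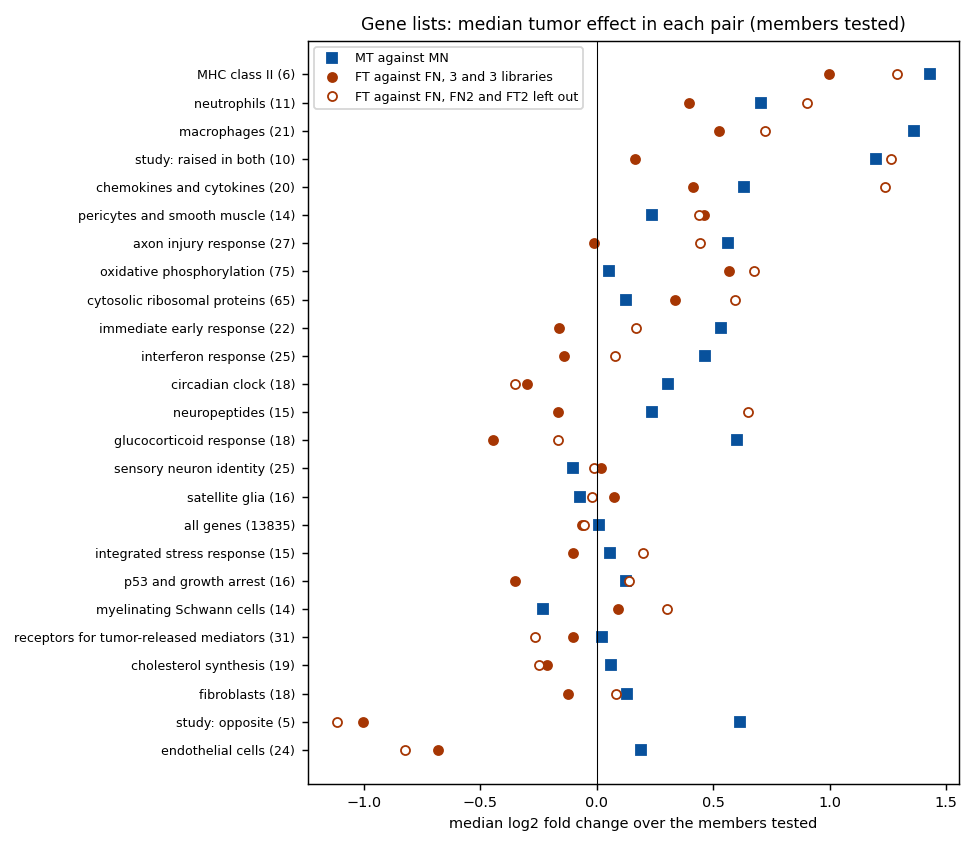
Median log2 fold change over the tested members of each gene list (number in brackets) for MT versus MN (squares), for FT versus FN with all libraries (filled circles) and for FT versus FN without FN2 and FT2 (open circles). MHC class II has the highest male median (1.43), and the endothelial and glucocorticoid lists lie on opposite sides of 0 in the 2 pairs.

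Promoters are shown for 3 genes that met the criteria in both settings and carry one of the motifs searched, 1 from each of the injury, heat shock and MHC class II groups. The sequences are the 200 bases before the RefSeq start in GRCm38.p6, on the gene's strand, with AP-1, CRE and heat shock matches in capitals. They lie at chr3:92485882-92486081 (minus strand, Sprr1a), chr17:34959239-34959438 (minus strand, Hspa1b) and chr17:34287824-34288023 (minus strand, H2-Aa).
Sprr1a: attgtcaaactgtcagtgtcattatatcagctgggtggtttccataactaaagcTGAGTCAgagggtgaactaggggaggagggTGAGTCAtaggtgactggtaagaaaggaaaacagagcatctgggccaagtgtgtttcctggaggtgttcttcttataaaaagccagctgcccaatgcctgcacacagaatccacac
Hspa1b: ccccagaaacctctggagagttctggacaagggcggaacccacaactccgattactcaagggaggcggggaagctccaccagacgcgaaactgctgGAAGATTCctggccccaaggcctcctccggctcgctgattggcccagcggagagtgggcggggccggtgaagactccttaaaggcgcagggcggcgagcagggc
H2-Aa: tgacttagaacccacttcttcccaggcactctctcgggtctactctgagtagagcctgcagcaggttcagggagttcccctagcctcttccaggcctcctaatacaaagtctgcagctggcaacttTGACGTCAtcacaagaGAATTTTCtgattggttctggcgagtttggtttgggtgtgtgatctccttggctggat

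The Sprr1a promoter holds 2 matches to the AP-1 motif TGANTCA, which begin at -146 and -116 from the start, and 1 match to TATAAA at -43, left in lower case. Hspa1b holds 1 match to the heat shock motif GAANNTTC at -104, and H2-Aa holds 1 match to the CRE motif TGACGTCA at -74 and 1 to the heat shock motif at -58. Each motif was searched on both strands of the window from 250 bases before to 50 after the start. Of the 46 genes that were higher at an unadjusted p under 0.05 in both settings, 34 matched the promoter table, with 38 promoters. Of these, 7.9% held AP-1, 2.6% CRE and 13.2% the heat shock motif, against 7.8%, 1.8% and 7.9% of all 32851 promoters. No test was made on these shares. The Gal and Npy promoters held no match to these 3 motifs in this window.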

How the data were processed

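The 12 libraries of flow-sorted lingual TG neurons were made by the SMART-seq2 protocol. The deposited files hold raw read counts per gene, which the authors obtained with TopHat2 on mm9 and HTSeq (CASAVA 1.8.2 and SAMtools are also named in the submitters' processing notes). The strand setting and the annotation are not given in the sources used here. Rows of HTSeq that name no gene (76.3% to 88.8% of the counts over all rows) were dropped.

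Counts were fitted in R 4.3.3 with edgeR 4.0.16 (TMM, filterByExpr with a minimum count of 10, glmQLFit, Benjamini-Hochberg adjustment over all genes tested), with tumor status and letter as terms. DESeq2 1.42.0 and limma 3.58.1 (voom) were alternatives. CPM are scaled by TMM. RPKM used exon lengths of GENCODE M1 (mm9), which gave 21627 of 22609 symbols a length. Pair effects and the difference between them came from a fit with 4 group means. The additive fit was also run on simulated counts with known changes. The outcome is not given here, and no result rests on it.

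Named were genes that moved the same way, with a mean of 5 CPM or more and no clone name, by lowest unadjusted p (10 higher and 10 lower with 12 libraries, then 5 and 5 with 10), genes without overlap of 6 against 6 libraries, the study's 2 lists, up to 4 members of each gene list and the defining markers. Members and lists were chosen with earlier results of these data known. The study's methods state that mice were put into groups by simple randomization, and do not say how mice were put into pools. Libraries are pools of mice, so p-values measure the spread between pools. The deviations of same-numbered libraries from their group means had correlations of -0.35 to 0.57, without 1 sign. The numbers were not used as pairs, and a fit with them as a block is given below. At 4592891 to 8922011 counts per library, genes of a few CPM rest on few reads and carry the larger counting error. Some genes that met these rules are not reported here.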

Additional observations from a re-analysis of the deposited data

Results flagged for a closer look

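FT2 had 68.4% of its reads mapped to several places, against at most 56.0% in the normal libraries, and these reads entered no count.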

How the results depend on the processing

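The count of genes at an adjusted p under 0.05, 0 in the fit of 12 libraries, was 8 with DESeq2 on 10 libraries and 1 with limma-voom. The 39 genes that met the criteria became 87 with 10 libraries, 96 with DESeq2 on 10 libraries, 69 with limma-voom, 64 with no filter on low counts, 65 as the average over the 4-group fit and 77 with an RPKM over 1. Leaving out 1 library gave 20 (without FN3) to 152 (without FT1), with 115 without FN2, 67 without FT3 and 29 higher to 8 lower without MT3. With the share of reads mapped to several places as a covariate, 27 were higher and 13 lower. The 14 genes without overlap in both pairs became 447 with 10 libraries, 680 with 9 (also without FT3) and 9 (0 higher) with library size alone. With 1 library left out, the count ran from 22 (without FN1) to 221 (without FN2). Fewer libraries overlap less often, and the part of this in the counts was not tested. The replicate numbers were not taken to pair the libraries, since same-numbered libraries had correlations of 0.03, 0.13 and 0.20 in males and 0.57, 0.21 and -0.35 in females. A fit with the replicate block gave 0 genes at an adjusted p under 0.05 and 33 by the criteria, and put H2-Aa at 0.96 (unadjusted p = 0.0855), H2-Eb1 at 1.11 (0.161), H2-Ab1 at 0.74 (0.081), Cd74 at 1.09 (0.16) and Ctss at 1.03 (0.0998).

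Of 1237 values of 54 named genes, 936 kept their direction and side of an unadjusted p of 0.05, 161 lost it, 106 gained it and 34 turned direction. Fam107a (-0.06) turned to 0.11 with 10 libraries, 0.41 with 9, 0.12 with DESeq2 on 10, 0.30 with limma-voom and 0.20 with the covariate, and ranged from -0.30 to 0.15 with 1 library left out. Sgk1 (-0.19) turned to 0.24 with 9 libraries, 0.25 with limma-voom and 0.15 with the covariate (-0.36 to 0.015 with 1 left out). Ctgf (-0.46) turned to 0.41, 0.22 and 0.023 in the same settings (-0.84 to 0.0036). Scgb1a1 (0.50) turned to -0.052 with 10 libraries, -0.90 with 9, -0.10 with DESeq2 on 10, -0.73 with limma-voom and -0.55 with the covariate (-0.42 to 0.81). Higd1b turned to -0.11 with limma-voom. With 1 library left out, Cxcl10 ranged from -0.087 to 1.28, Mlf1 from -0.13 to 0.80 and Fabp7 from -0.67 to 0.034. The causes were not tested.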
